A study of Mus musculus with 15 samples.

Results

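The transcripts examined here were those of 10 genes of the endoplasmic reticulum (ER) stress response: Hspa5, Hsp90b1, Dnajb9, Calr, Canx, Pdia3, Pdia4, Ddit3, Atf4 and Xbp1. Their members on the array were found by the gene symbol in the platform annotation, which gave 22 probe sets of 22626 tested, with 1 to 4 probe sets per gene. Expression was measured in the gastrocnemius, a calf muscle of mostly fast fibers, of 15 male C57BL/6NHsd mice with 1 MOE430A array per mouse. The groups were 5 old mice (25 months) on caloric restriction (CR), 5 old mice (25 months) on the normal diet and 5 young mice (5 months) on the normal diet. The normal diet supplied 84 kcal per week, itself less than these mice eat when food is not limited, and CR mice took in 26% fewer calories from a chow with added protein, vitamins and minerals. All mice were of 1 inbred strain, lived in single cages and kept to their diet from early life. There was no young CR group, so the diets could be compared in old mice only. The same old arrays stand in the comparison of old with young mice and of old CR with old mice, so a high or low value in old mice enters both.

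Proteins that are secreted or inserted into membranes fold in the ER, where chaperones hold them, lectins bind their sugar chains and disulfide isomerases form and rearrange their disulfide bonds. When unfolded proteins accumulate, 3 sensors in the ER membrane start the unfolded protein response: ATF6 is cut to release a transcription factor, IRE1 (gene Ern1) splices Xbp1 mRNA into the form that encodes an active factor, and PERK (gene Eif2ak3) phosphorylates eIF2α, which slows translation in general but raises that of Atf4 and, through it, transcription of Ddit3. In muscle fibers the ER is continuous with the sarcoplasmic reticulum, the calcium store of contraction. The array reads total mRNA and does not separate spliced from unspliced Xbp1, nor the translation of Atf4.

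Many genes of this response carry the ER stress element, to which ATF6 binds together with NF-Y: CCAAT and CCACG with 9 bases between them. A RefSeq promoter window, 250 bases before to 50 bases after the start of the gene (build GRCm38.p6), was matched for 10 of 10 genes, and both strands were searched for the motif. It was found in 4 of 10 member windows, against 39 of 32851 windows of all genes (0.119%). Since the element is one that genes of this response carry, this contrast follows from the choice of genes and is not a test. The stretches that hold the element are shown because these 4 genes share the letters but not the calls in the muscle, as the values that follow show. Probe sets of 1 gene also differed in their calls, and whether the genes differed from each other was not tested. Each stretch reads 5′ to 3′ on the strand of its gene with the element in capitals, and where the element lies on the opposite strand its capitals begin with CGTGG and end with ATTGG.
Hspa5: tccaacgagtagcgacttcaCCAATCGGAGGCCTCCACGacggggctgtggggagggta
Calr: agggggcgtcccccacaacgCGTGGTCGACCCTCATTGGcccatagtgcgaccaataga
Hsp90b1, upstream copy: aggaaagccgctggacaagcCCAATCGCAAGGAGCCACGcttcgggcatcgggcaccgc
Hsp90b1, downstream copy: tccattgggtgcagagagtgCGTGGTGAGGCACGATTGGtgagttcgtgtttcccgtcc
Canx: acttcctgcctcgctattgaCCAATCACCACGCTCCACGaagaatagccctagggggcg

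The Hspa5 stretch lies at chr2:34772005-34772063 (plus strand) and its element begins 65 bases before the start. That of Calr lies at chr8:84847055-84847113 (minus strand), with the element from 162 bases before the start. Hsp90b1 has copies at chr10:86705618-86705676 and chr10:86705513-86705571 (minus strand), from 212 and 107 bases before the start. The Canx stretch lies at chr11:50325780-50325838 (minus strand), from 145 bases before the start. The parts of the element alone are common. CCAAT was in 9 of 10 member windows and in 37.4% of all windows, and CCACG in 7 of 10 and in 32.8%. TGACGT, searched as the core of XBP1 and ATF6 sites and also that of a cyclic AMP response element, was in 2 of 10 (Hspa5 and Canx) and in 7.51% of all windows. The composite site of ATF4 and C/EBP factors, TGATGNAAT, was in 0 of 10 member windows and in 0.965% of all windows. A match describes letters and not binding, and no match says nothing of the factor outside these windows.

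As scaled by the authors, the 15 arrays had median intensities of 200.6 to 243.5. All 10 markers of skeletal muscle were measured and bright, for example Acta1 (skeletal actin) with a mean intensity of 32550 in old CR and 25660 in old mice. Their summed intensity was 226400 to 327100 in old CR, 201500 to 268700 in old and 250600 to 295100 in young mice, so that the groups overlapped. The mean was higher in old CR than in old mice for 10 of 10, with a median difference of 0.32. An unadjusted p under 0.05 was found for 6 of 10, against 21.9% of all probe sets, and 1 (Myh1) was called, against 4.87%. The part of this shift in the differences of the ER genes was not tested. Control probe sets for the 3′ and 5′ ends of Gapdh and Actb, which read how far the labelled copies reach toward the 5′ end, differed with the groups. The 3′ signal minus the 5′ signal on the log2 scale, averaged over both genes, was −0.42 to −0.21 in old CR, 0.05 to 0.27 in old and −0.28 to 0.06 in young mice, so the old CR and old groups did not overlap. A fit that includes this value can thus hardly tell it from the diet. A call lost, or a difference changed, in such a fit cannot be read as a result about that gene. Young replicate 3, at 0.06, was the only young array inside the range of the old group. Over all probe sets it lay nearer to the mean of old mice than to that of the other young mice for 56.6%, against 38.4 to 41.6% for each of the other 4 young arrays. Over the 22 member probe sets it did so for 10, against 5 to 9.

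For old against young mice, 0 of the 22 member probe sets were called, that is, had a Benjamini-Hochberg adjusted p under 0.05 in limma, against 0.265% of all probe sets. At an unadjusted p under 0.05 there were 7 of 22 (31.8%), against 15.5% of all probe sets, and 1 of 22 had groups that did not overlap (4.55%, against 3.61%). All 22 were kept in the tests, and 17 of them were among the bright probe sets to which an alternative was limited. The mean was higher in old mice for 16 of 22, and the median difference was 0.18 on the log2 scale, against −0.06 over all probe sets. For old CR against old mice, 4 of the 22 were called (18.2%, against 4.87% of all probe sets). Of these, 3 were higher in old CR mice, against 2.70% of all probe sets, and 1 was lower, against 2.17%. The calls were 1 probe set of Hsp90b1, 2 of Canx and 1 of Xbp1, so probe sets of the same gene count separately here. By the brightest probe set of each gene, 1 of 10 (Canx) was called and had no overlap, and 4 of 10 had an unadjusted p under 0.05. The shares of all probe sets also include dim ones, while 17 of the 22 were bright (counts among the brightest at the end). Centering each array on its median changed the split of all calls from 612 higher and 490 lower to 420 higher and 687 lower, and that of the members to 2 higher and 1 lower. Of the 22, 8 had an unadjusted p under 0.05 (36.4%, against 21.9%) and 5 had no overlap (22.7%, against 8.89%), while the median difference of −0.04 lay near the 0.06 of all probe sets. For old CR against young mice 0 of 22 were called, against 0.0884% of all probe sets. There, 6 had an unadjusted p under 0.05 (27.3%, against 12.1%), 2 had no overlap (9.09%, against 3.57%), and the median difference was 0.08, against −0.01.

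**Figure D1:**
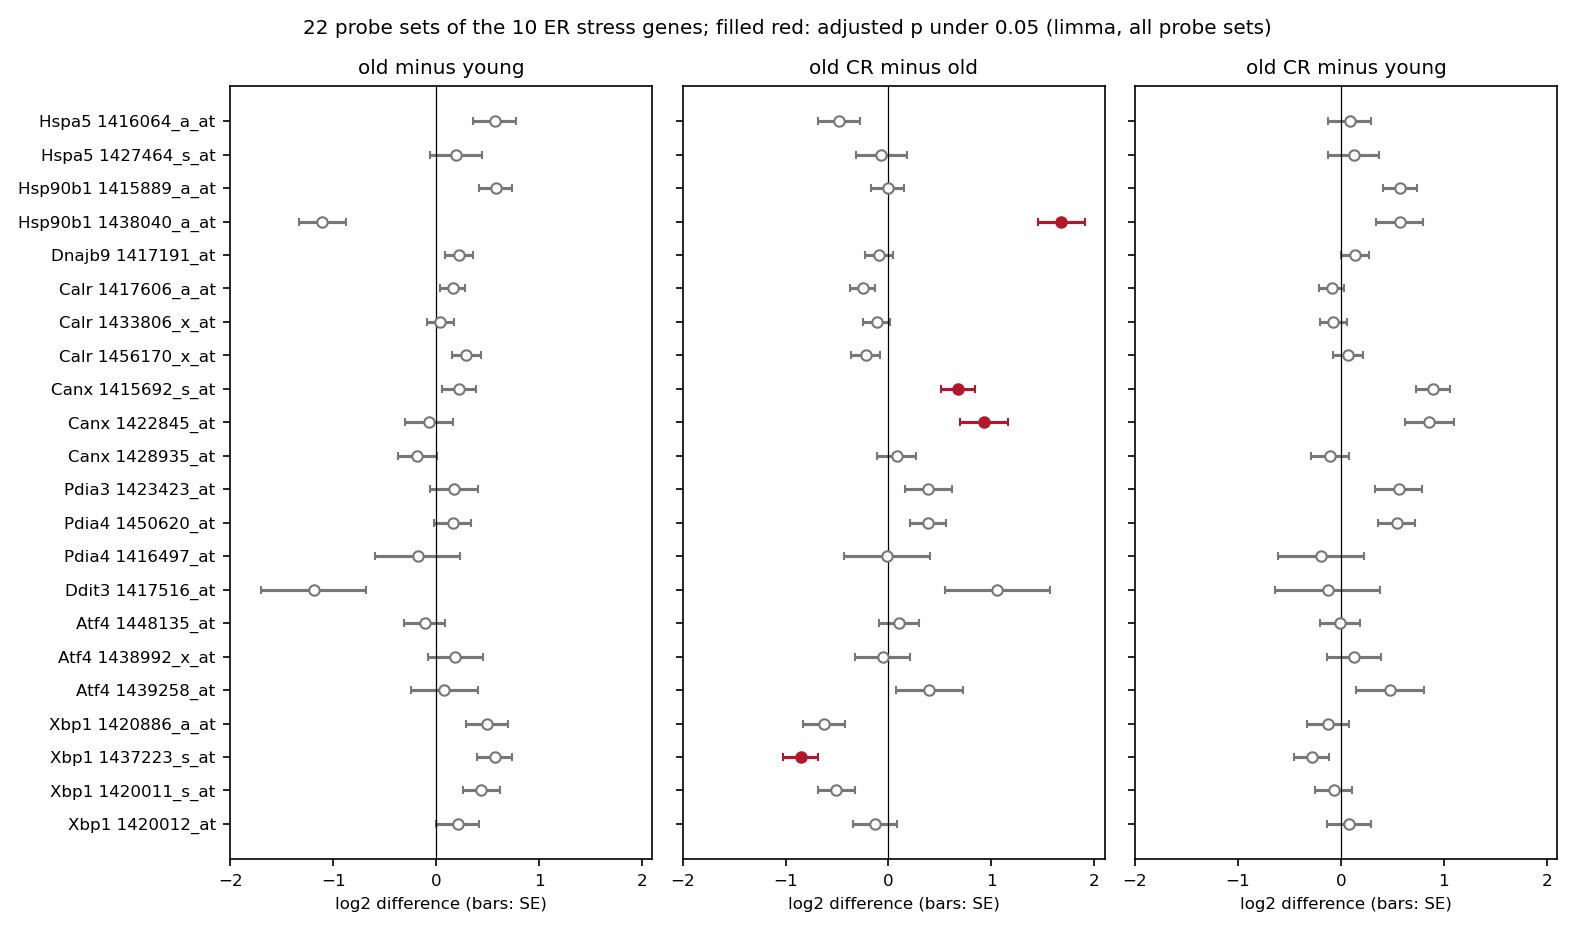
Log2 differences (horizontal axis, bars are the SE of the limma fit) for the 22 probe sets of the 10 genes, by gene from top to bottom, in the 3 comparisons. Filled red points have an adjusted p under 0.05. All 4 lie in the comparison of old CR with old mice, at 1.68, 0.67 and 0.93 for Hsp90b1 and Canx and at −0.85 for Xbp1.

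Among the chaperones, Hsp90b1 gave the largest difference of the 22 probe sets, and its probe sets did not move alike. Hsp90b1 encodes GRP94, the HSP90 protein of the ER. Probe set 1438040_a_at had intensities of 478, 727, 565, 481 and 659 in old CR mice, 212, 177, 194, 132.0 and 194 in old mice and 427, 483, 207, 434 and 463 in young mice. Every old CR value was above every old value, and 4 of 5 young values lay above all old values. The difference of old CR minus old was 1.68 (SE 0.23, adjusted p = 0.00511), or 3.2-fold. It stayed called with each of the 15 arrays left out in turn, at adjusted p of 0.000123 to 0.0181. In old minus young mice it was −1.11 (SE 0.23, adjusted p = 0.0576). The 1 young value inside the old range, 207, was that of young replicate 3. Without that array the age difference was called, at −1.33 (SE 0.17, adjusted p = 0.000852), when 4.72% of all probe sets were, against 0.265% with it. Leaving out the young value nearest the old mice widens the difference by itself. The brighter probe set, 1415889_a_at, had 692, 788, 573, 632 and 585 in old CR mice, 679, 804, 652, 644 and 515.0 in old mice and 527, 324, 490.1, 469.6 and 402 in young mice. Here old CR and old mice covered the same range, with a difference of −0.01 (SE 0.16). Old CR minus young was 0.58 (SE 0.16, adjusted p = 0.173, no overlap) and old minus young 0.58 (SE 0.16, adjusted p = 0.109), neither called. Young replicate 3 was 490.1 there, among the other young mice. The position of either probe set in the transcript was not given in the tables used here, and a fit that included the 3′ minus 5′ value of each array put the difference of 1438040_a_at at 0.95 (SE 0.44, adjusted p = 0.768).

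Hspa5 encodes BiP, the HSP70 protein of the ER that also binds the 3 sensors. Its brighter probe set, 1416064_a_at, had 1348, 2367, 1925, 1516 and 1878 in old CR mice, 2349, 2709, 2948, 1820 and 2706 in old mice and 1283, 1393, 2534, 1750 and 1629 in young mice. The groups overlapped, and the 2534 was again young replicate 3. Old minus young was 0.57 (SE 0.21, adjusted p = 0.207) and old CR minus old −0.48 (SE 0.21, adjusted p = 0.194). Without young replicate 3 the age difference was 0.72 (SE 0.19) and was called at an adjusted p of 0.0484, when 4.72% of all probe sets were. The other probe set, 1427464_s_at, had differences of 0.19 and −0.07, not called. Dnajb9 (ERdj4), a cochaperone of BiP, had 2033 to 3208 in old CR mice (median 2867), 2715 to 3011 in old mice (median 2967) and 1953 to 2727 in young mice (median 2532). Its differences of 0.22 (old minus young) and −0.09 (old CR minus old) were not called.

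**Figure D2:**
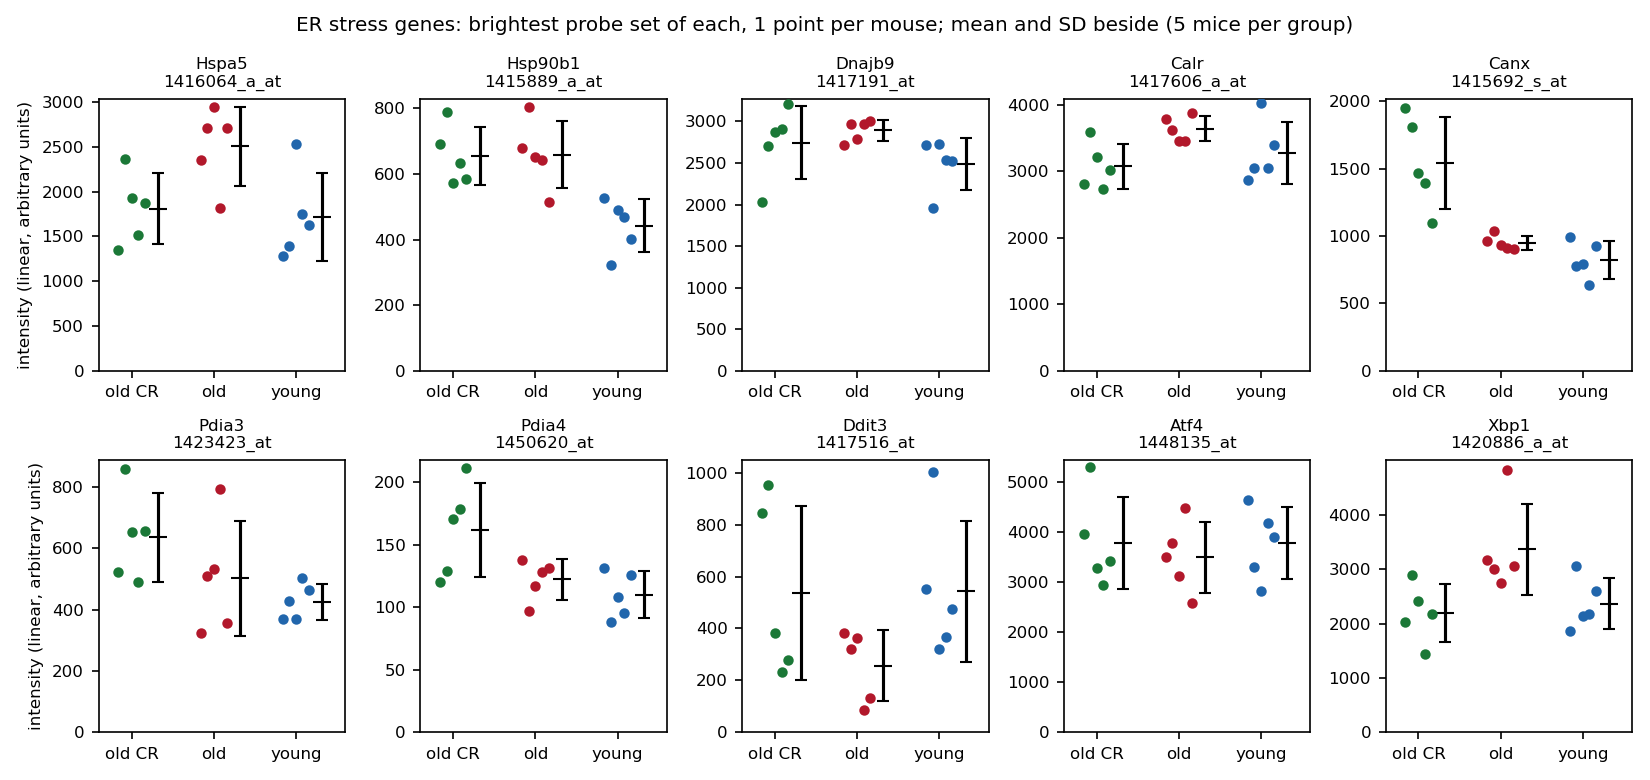
Linear intensity (vertical axis, arbitrary units, from 0) of the brightest probe set of each of the 10 genes in old CR, old and young mice, 1 point per mouse, with the mean and SD beside the points (n = 5 per group). Canx is the 1 panel in which old CR mice (1098 to 1951) lie above all old and young mice, and Ddit3 shows values from 85.1 to 1001 over the 15 mice.

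The lectin chaperones calnexin and calreticulin, which bind newly made glycoproteins through the same sugar chain, differed from each other. Canx (calnexin, anchored in the membrane) was higher in old CR mice by 2 of 3 probe sets. Probe set 1415692_s_at had 1951, 1806, 1470, 1393 and 1098 in old CR mice, 962, 1035, 937, 911 and 904 in old mice and 992, 777, 789, 634 and 926 in young mice. No old CR value reached into either other group. The ending _s_at of this name marks probes that can match more than 1 transcript. The difference of old CR minus old was 0.67 (SE 0.16, adjusted p = 0.0347) and that of old CR minus young 0.89 (SE 0.16, adjusted p = 0.0593), while old minus young was 0.22 (adjusted p = 0.549). Probe set 1422845_at had 370.1, 449, 362, 266 and 449.7 in old CR mice, 184, 224, 178, 195 and 202 in old mice and 239, 246, 106, 282 and 208 in young mice. It also had no overlap between old CR and old mice, with a difference of 0.93 (SE 0.24, adjusted p = 0.0389), and young replicate 3 was the lowest of all arrays, at 106. The dimmer 1428935_at had 159 to 268 in old CR, 151 to 258 in old and 171 to 241 in young mice and a difference of old CR minus old of 0.08 (adjusted p = 0.846). Both calls lay near the threshold. That of 1415692_s_at was lost without any 1 of the 5 old arrays or of old CR replicates 2, 3, 5 and 6 (adjusted p up to 0.071) and with median centering (0.59, adjusted p = 0.0708). That of 1422845_at was lost without young replicate 5, any 1 of the 5 old arrays or old CR replicates 2, 3, 5 and 7 (adjusted p up to 0.085), and with the 3′ minus 5′ covariate its direction turned, to −0.18 (SE 0.37, adjusted p = 0.96). The same covariate put 1415692_s_at at 0.88 (SE 0.35, adjusted p = 0.717), larger than without it but not called.

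Calr (calreticulin, the soluble counterpart in the ER lumen) was bright and even. Its brightest probe set, 1417606_a_at, had 2811, 3586, 3219, 2740 and 3027 in old CR mice, 3781, 3617, 3462, 3455 and 3884 in old mice and 2866, 3045, 4024, 3045 and 3396 in young mice. All groups overlapped, and the 4024 was young replicate 3. Over its 3 probe sets the difference of old minus young was 0.04 to 0.29 and that of old CR minus old −0.25 to −0.11, and 0 of these were called, nor had any an unadjusted p under 0.05. The names of its other probe sets, 1433806_x_at and 1456170_x_at, mark probes that can also match other sequences. Of the 4 genes with the element printed above, old CR mice were thus higher than old mice by a called probe set of Hsp90b1 and of Canx. They were not called different for Hspa5 (−0.48) or Calr (−0.25). The brighter probe set of Hsp90b1 (−0.01) and the dimmest of Canx (0.08) were not called either. Whether the genes differed from each other was not tested.

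Of the disulfide isomerases, neither was called in any comparison. Pdia3 (ERp57), which works on glycoproteins held by calnexin and calreticulin, had 523, 859, 653, 489.8 and 655 in old CR mice, 323, 509, 532, 793 and 355 in old mice and 368, 427, 369, 502 and 464 in young mice. The groups overlapped, and old replicate 4, at 793, was above 4 of 5 old CR mice. Old CR minus young was 0.56 (SE 0.23, adjusted p = 0.348), old CR minus old 0.39 (adjusted p = 0.351) and old minus young 0.17. Pdia4 (ERp72) was dim, and neither of its probe sets was among the bright ones that the filter in the alternatives keeps. Probe set 1450620_at had 120, 129, 170.2, 178 and 211 in old CR mice, 138, 97.0, 117, 128 and 131 in old mice and 132, 88.1, 108, 95.5 and 126 in young mice. The old CR mice were split, with 3 of 5 above every old and every young mouse. Its difference was 0.54 against young mice (SE 0.18, adjusted p = 0.233) and 0.38 against old mice (SE 0.18, adjusted p = 0.223). The second, 1416497_at, had 32.04 to 129 in old CR, 36.9 to 169.5 in old and 62.1 to 124 in young mice, and its differences were within 0.20 of 0.

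Xbp1, the transcription factor made active by IRE1, was lower in old CR than in old mice. Probe set 1437223_s_at had 890.5, 1596, 1178, 1038 and 1265 in old CR mice, 2045, 1999, 1806, 2674 and 2136 in old mice and 1194, 1543, 1518, 1710 and 1229 in young mice. The ending _s_at marks probes that can match more than 1 transcript. All 5 old mice were above every old CR and every young mouse. The difference of old CR minus old was −0.85 (SE 0.17, adjusted p = 0.0162) and stayed called without any 1 of the 15 arrays (adjusted p 0.0117 to 0.0391). The difference of old minus young was 0.57 (SE 0.17, adjusted p = 0.132) and was not called. The brightest probe set, 1420886_a_at, had 2021, 2886, 2420, 1444 and 2185 in old CR mice, 3171, 3011, 2737, 4830 and 3067 in old mice and 1867, 3051, 2142, 2181 and 2597 in young mice. Of old CR mice only replicate 3, at 2886, reached into the old range. Its differences were −0.62 (SE 0.21, adjusted p = 0.0941) for old CR minus old and 0.50 (SE 0.21, adjusted p = 0.262) for old minus young. Probe set 1420011_s_at had 531, 659, 601, 518 and 567.9 in old CR mice, 694, 989, 712, 985 and 745 in old mice and 582, 536, 592, 924 and 461 in young mice. Old CR and old mice did not overlap, yet the difference of −0.51 (SE 0.18, adjusted p = 0.116) was not called. The dimmest, 1420012_at, had 166 to 272 in old CR, 178 to 331 in old and 157 to 260 in young mice, with −0.13 and 0.21, neither called. The means of all 4 probe sets of Xbp1 thus had the order old above old CR and old above young, and 1 of 4 was called in 1 comparison. When only the brightest probe sets were tested, which include 3 of the 4, all 3 were called for old CR minus old (adjusted p of 0.00316, 0.0362 and 0.0488), and 1437223_s_at was also called for old minus young (adjusted p = 0.0472). With the 3′ minus 5′ covariate the difference of 1437223_s_at was −0.74 (SE 0.36, adjusted p = 0.79).

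Xbp1 is also a main factor of plasma cells, and whole muscle holds blood and immune cells. In such tissue RNA, fewer cells of a type and less RNA per cell cannot be told apart. Of 12 plasma cell and B cell markers 9 were measured and 0 were called between old CR and old mice, against 4.87% of all probe sets. Their summed intensity was 1370 to 4068 in old CR, 2708 to 7021 in old and 2241 to 4214 in young mice. Most of the sum was Igh-6 (the mu heavy chain of IgM), with a mean of 1552 in old CR and 3691 in old mice (adjusted p = 0.136). Igj (the joining chain) averaged 109.9 in old CR and 459 in old mice (adjusted p = 0.0531, no overlap). Over the 9 markers the mean was lower in old CR mice for 5 (Igj, Igh-6, Pou2af1, Sdc1 and Ms4a1) and higher for 4 (Tnfrsf17, Cd79b, Cd79a and Prdm1). A kappa light chain was not among the 9. The study listed probe sets of a kappa chain, Igh-6 and Igj as higher with age, a rise largely or wholly prevented by CR. The summed intensity of 12 macrophage markers was 6649 to 8368 in old CR, 8884 to 12700 in old and 4973 to 11740 in young mice, so that old CR and old mice did not overlap there. The brightest of them in old mice were Csf1r and Lyz2, with means of 2355 and 2177. Of these 12, 1 was called lower in old CR mice (Ctss), against 2.17% of all probe sets. The log2 difference of old CR minus old was below 0 for 9 and above 0 for 3 (Cd68, Cd163 and Cd14). The part of these cells in the Xbp1 difference was not tested.

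**Figure D3:**
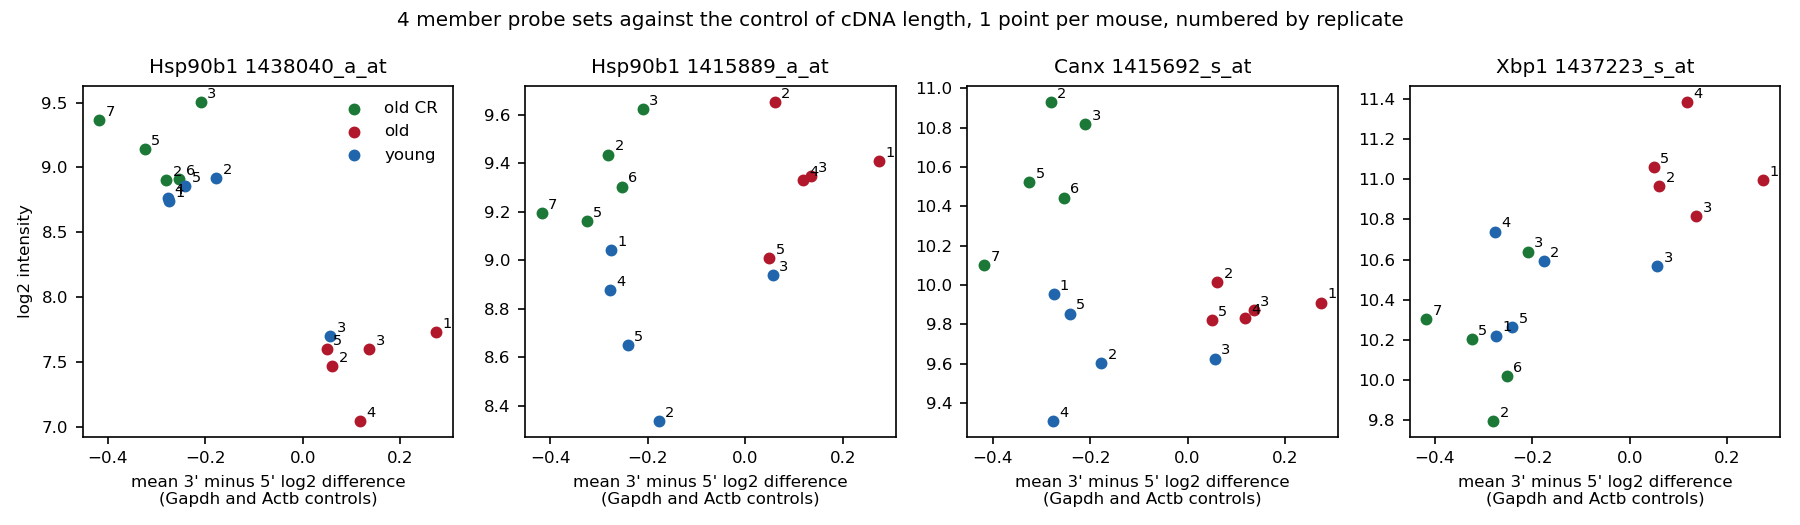
Log2 intensity (vertical axis) of 2 probe sets of Hsp90b1, 1 of Canx and 1 of Xbp1 against the 3′ minus 5′ value of the Gapdh and Actb controls (horizontal axis, log2 scale, mean of both), 1 point per mouse with its replicate number, for old CR, old and young mice. In the first panel young replicate 3 (207 in linear intensity) lies with the old mice, in the second (490.1) with the other young mice.

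The other transcription factors were not called in any comparison. Ddit3 (CHOP), which acts late in the response and favors cell death, had 846, 950.4, 384, 233 and 278 in old CR mice, 383, 322, 365, 85.1 and 133 in old mice and 553, 1001, 321, 368 and 476 in young mice. Old mice were low on average but each group overlapped the others, and old replicates 4 and 5 were the lowest of the 15 arrays. The difference of old minus young was −1.19 (SE 0.51, adjusted p = 0.28) and that of old CR minus old 1.06 (SE 0.51, adjusted p = 0.242), the largest SE of the 22 probe sets. Atf4, which encodes the factor that acts upstream of Ddit3, had 2938 to 5287 in old CR mice (median 3408), 2578 to 4481 in old mice (median 3502) and 2824 to 4642 in young mice (median 3895) by its brightest probe set, 1448135_at. The differences there were −0.11 (old minus young, SE 0.20) and 0.11 (old CR minus old, SE 0.20). Its other probe sets, 1438992_x_at and the dim 1439258_at (8.61 to 38.7 over all arrays), gave 0.19 and 0.08 for old minus young and −0.06 and 0.40 for old CR minus old.

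Beyond these 10 genes, 135 others of the ER were set out in 8 lists, and 127 of them were measured, taking the brightest probe set of each. For old against young mice 0 of 127 were called, against 0.265% of all probe sets, and 26 (20.5%, against 15.5%) had an unadjusted p under 0.05. For old CR against old mice 9 were called (7.09%, against 4.87% of all probe sets), 2 higher and 7 lower. There, 30 (23.6%, against 21.9%) had an unadjusted p under 0.05. For old CR against young mice 0 were called, against 0.0884% of all probe sets, and 19 (15.0%, against 12.1%) had an unadjusted p under 0.05. The median difference over the 127 was 0.01, 0.00 and −0.03 in the 3 comparisons. These genes were taken by their brightest probe sets, while the shares of all probe sets include dim ones. When only the brightest probe sets were tested, the share of these genes called was below that of all for old minus young. It was also below for old CR minus old, and above for old CR minus young (counts at the end).

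Of the targets of PERK and ATF4, 26 of 26 were measured and 1 was called between old CR and old mice, against 4.87% of all probe sets. This was Sars1, a seryl-tRNA synthetase of the cytosol, with 1668, 1649, 1744, 1479 and 1652 in old CR mice, 501, 492, 655, 495 and 675 in old mice and 1611, 1579, 656, 1520 and 1048 in young mice. The lowest old CR value was 1479 and the highest old value 675, and of young mice replicate 3 alone stood in the old range. The difference was 1.55 (SE 0.22, adjusted p = 0.00522), and a second probe set gave 1.38 (adjusted p = 0.00522). Old minus young was −1.12 (SE 0.22, adjusted p = 0.054), or −1.347 without young replicate 3 (adjusted p = 0.000484), when 4.72% of all probe sets were called. Asns (asparagine synthetase) differed by −0.74 (adjusted p = 0.0682), Atf5 by 0.64 (adjusted p = 0.0504) and Stc2 (stanniocalcin) by 0.73 (adjusted p = 0.106), so members with large differences stood on both sides of 0 and the list's median was 0.01.

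Of 20 measured genes of the transport of new proteins into the ER, 4 were called lower in old CR than in old mice, against 2.17% of all probe sets, and whether these calls gathered in this list was not tested. The median difference of the list was −0.19, against 0.06 over all probe sets. Sec62, a partner of the translocon, had 1058, 918, 845, 559 and 982 in old CR mice, 1513, 1768, 1781, 2170 and 2285 in old mice and 1194, 934, 1936, 1103 and 1011 in young mice, a difference of old CR minus old of −1.14 (SE 0.22, adjusted p = 0.0143). Srp9 and Srp19, proteins of the signal recognition particle, differed by −0.55 (SE 0.11, adjusted p = 0.0162) and −1.01 (SE 0.25, adjusted p = 0.035). Srp19 had 1786, 1538, 1351, 1037 and 1452 in old CR mice, 2622, 2890, 2997, 2778 and 2881 in old mice and 1363, 1377, 3305, 1292 and 1130 in young mice. In Sec62 and Srp19, young replicate 3 (1936 and 3305) lay within or above the range of the old mice, and the other 4 young mice lay below it. Sec61a2, an alternative channel subunit, differed by −0.47 (SE 0.12, adjusted p = 0.0412), but a second probe set of it gave 0.26 (adjusted p = 0.209). Sec62 had further probe sets at −0.15, 1.22 and −0.27 and Srp9 at −0.17, none called.

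The remaining called genes lay in 3 lists, whose counts stand against the 4.87% of all probe sets called between old CR and old mice. Dnajc3 (p58IPK), an inhibitor of PERK and a cochaperone of BiP, was the 1 called gene of 16 chaperones and cochaperones measured, at −1.02 (SE 0.20, adjusted p = 0.0152). It had 403, 489.6, 366, 402 and 354 in old CR mice, 888, 1069, 989, 613 and 616 in old mice and 427, 499, 795, 557 and 554 in young mice, and its other probe sets gave 0.04, −0.65, 0.03 and −0.50, none called. In N-glycan transfer and quality control (17 of 17 measured), Magt1, a subunit of the oligosaccharyltransferase, was higher in old CR mice, by 0.84 (SE 0.19, adjusted p = 0.029), and Mogs, the glucosidase that trims the first glucose of the glycan, was lower, by −0.74 (SE 0.17, adjusted p = 0.03). In ER-associated degradation (20 of 22 measured), Herpud2 was lower, at −0.57 (SE 0.14, adjusted p = 0.0392), while Derl1 (derlin) differed by −0.43 (adjusted p = 0.115) and Sel1l by 0.46 (adjusted p = 0.122). Their other probe sets gave −0.19 and −0.05 for Herpud2, 0.14, 0.85 and −0.89 for Derl1 and −0.01, 0.425 and −0.045 for Sel1l, none called. Leaving out each array in turn kept the calls of Sars1, Sec62, Srp9 and Dnajc3. That of Magt1 was lost without any 1 of old replicates 2 to 5 or old CR replicates 3, 5 and 6, and that of Mogs without any 1 of old replicates 1, 2, 4 and 5 or old CR replicates 3, 5 and 6. Srp19 was not called without any 1 of the 5 old arrays or old CR replicates 3, 5, 6 and 7, and Herpud2 without young replicate 4, old replicates 2 to 5 or old CR replicates 2, 5, 6 and 7. Sec61a2 kept its call without young replicate 2, young replicate 3 or old CR replicate 3 and lost it without any 1 of the other 12 arrays. All 9 missed the threshold with the 3′ minus 5′ covariate, at adjusted p of 0.68 to 0.991, and all 9 kept their sign. Old CR and old mice did not overlap in that value, so this fit can hardly separate it from the diet. Neither the lost calls nor the sizes that follow can be read as results about these genes. Their SEs were larger in that fit, and the sizes of the differences parted. Srp9 stood at −0.64 (SE 0.23), Sec62 at −0.87 (SE 0.46) and Herpud2 at −0.47 (SE 0.31), while Srp19 stood at −0.05 (SE 0.44), Dnajc3 at −0.27 (SE 0.36) and Sars1 at 0.60 (SE 0.37).

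**Figure D4:**
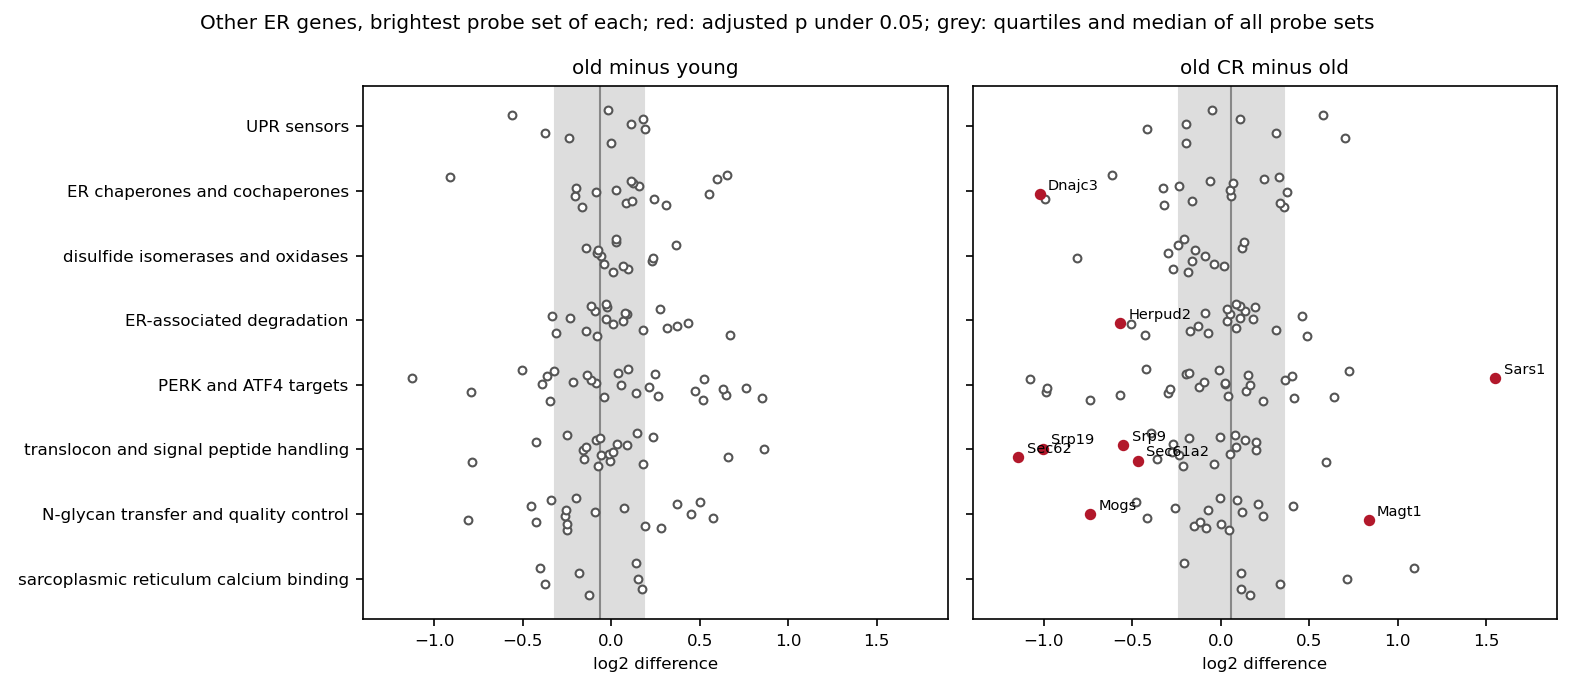
Log2 differences of old minus young (left) and old CR minus old (right) for 127 other ER genes in 8 lists, 1 point per gene, with called genes in red. Grey bands are the quartiles and the line the median of all 22626 probe sets. Of the 9 named genes, Sars1 (1.55) and Magt1 (0.84) lie to the right of 0.

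In the other 3 lists 0 genes were called in any comparison, against at most 4.87% of all probe sets. Of all probe sets, 15.5% had an unadjusted p under 0.05 for old minus young and 21.9% for old CR minus old. Of 8 sensor genes measured, 2 had an unadjusted p under 0.05 for old against young and 3 for old CR against old mice. Ern1, the gene of IRE1, had a difference of −0.56 (adjusted p = 0.223) for old minus young and 0.58 (adjusted p = 0.131) for old CR minus old. Of 13 other disulfide isomerases and oxidases, 10 had a lower mean in old CR than in old mice, with 1 of 13 at an unadjusted p under 0.05; P4hb (protein disulfide isomerase) differed by −0.16 (adjusted p = 0.367). Of 7 genes of calcium binding in the sarcoplasmic reticulum, 6 had a higher mean in old CR than in old mice and 2 an unadjusted p under 0.05. Casq1 (calsequestrin of fast fibers) had −0.37 (adjusted p = 0.215, no overlap) for old minus young and 0.34 (adjusted p = 0.172) for old CR minus old.

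The absence of calls with age held for this fit of the deposited values and rested in part on 1 array. The study, with RMA values and an empirical Bayes method, listed both Hsp90b1 probe sets and Xbp1 1437223_s_at as changed with age. It also listed the brightest probe sets of Srp19, Derl1, Serpinh1 and Dnajc3, each in the direction found here. This is not all of the overlap with the ER lists. Of the PERK and ATF4 targets, the study listed Cebpb and Ddit4 as higher with age and Aars1 as lower. It further listed probe sets of Srprb, Ube2g2, Lman1 and Sel1l as lower with age. Without young replicate 3, 8 of the 127 genes were called between old and young mice, against 4.72% of all probe sets. Derl1 (0.81, adjusted p = 0.00198), Sec62 (0.83, adjusted p = 0.0245), Srp19 (1.14, adjusted p = 0.00103) and Stt3b (0.61, adjusted p = 0.0357) were higher in old mice by their brightest probe sets. Sars1, Magt1 (−0.96, adjusted p = 0.00635), Sec61a1 (−1.02, adjusted p = 0.0091) and Serpinh1 (−1.004, adjusted p = 0.0181), the collagen chaperone HSP47, were lower. Other probe sets of these genes did not all agree in sign. With all arrays, old minus young was −0.07, −0.46 and 1.06 for the other 3 of Derl1, 0.38, −0.75 and 0.33 for those of Sec62, −0.12 for that of Stt3b, −0.07 for that of Serpinh1 and −0.76 for that of Sars1, none called. Of 12 fibroblast and tendon markers, the mean of 9 was lower in the old group, and their summed intensity was 18390 to 25370 in old CR, 20980 to 33090 in old and 27760 to 41790 in young mice. Their part in the Serpinh1 difference was not tested. The 3′ minus 5′ controls of the array left out were those nearest the old group, and the part of that difference in these calls was not tested.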

How the data were processed

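Poly(A) RNA of 15 gastrocnemius muscles was labelled and hybridized to MOE430A arrays, 1 per mouse. The deposited table holds linear intensity, which the authors scaled array by array to a mean of 500 after trimming 2% at each end. The submitters' processing notes name RMA and MAS5, with versions not given in the sources used here. Which of them made this table is not stated. Equal trimmed means with unequal quartiles are not what RMA gives, so the values are probably MAS5 signals and not the RMA values that the study tested. No value in the table is a count, so no depth applies, and the number of arrays limits the precision. The intensity was converted to log2 with no pseudocount, and 64 control probe sets of 22690 were left out of the tests. The other 22626 entered 1 model of all 3 groups (limma 3.58.1, R 4.3.3). Benjamini-Hochberg adjustment ran over all of these in each comparison, and an adjusted p under 0.05 was called. Summaries were made in Python 3.11.15 with pandas 2.3.3 and drawn with Matplotlib 3.10.9. The steps were tested on simulated data.

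The 10 genes and all lists were chosen with earlier results of these data known. All probe sets of the 10 genes were named, and up to 4 genes per list with the smallest adjusted p for age or CR. Sec61a1 was named after its value without young replicate 3 was seen. Of the deposited probe sets 20393 had 1 symbol in the annotation, 691 had several, from which no name was taken, and 1606 had none. Names ending in _s_at and _x_at mark probes that can match more than 1 transcript. Chromosomal positions and sequences are those of RefSeq (GRCm38.p6). Alternatives were a filter to the brightest probe sets (as many as the study kept by detection calls), median centering, quantile normalization, a pseudocount of 32, a fit without the group not compared, a variance trend, the replicate number as a block, a covariate for the 3′ minus 5′ value, an adjusted p under 0.10, averaging the probe sets of each gene, and leaving out each array in turn.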

Additional observations from a re-analysis of the deposited data

Results flagged for a closer look

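In 5 of the 66 member groups of 5 arrays, 1 array lay apart from the other 4 by Dixon's test at the 95% level. The test used linear intensity, and chance gives this in about 1 in 20 groups only where values are normally distributed. The other tests ran on log2 values, on which the arrays flagged can differ. In Hsp90b1 1438040_a_at young replicate 3 was low, at 207.3 against 427 to 483 in the other young mice. In Dnajb9 1417191_at young replicate 2 was low, at 1953 against 2525 to 2727. In Atf4 1438992_x_at old CR replicate 3 was high, at 991.9 against 559 to 613. Xbp1 had 1 high array in each of 2 probe sets. Old replicate 4 stood at 4830 against 2737 to 3171 in 1420886_a_at, and young replicate 4 at 924.1 against 461.0 to 592 in 1420011_s_at. Young replicate 4 was also the highest young array in Xbp1 1437223_s_at (1710), and old replicate 4 the highest old array there (2674).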

How the results depend on the processing

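Every count is of calls, out of all probe sets, the 22 member probe sets and the 127 other ER genes (17 and 105 of these among the brightest). For old minus young (60, 0 and 0), they were 596, 3 and 5 among the brightest probe sets, 418, 1 and 4 with a variance trend, 196, 1 and 3 with a pseudocount of 32, and 380, 1 and 4 at an adjusted p under 0.10, while all probe sets gave 6 in a fit of 2 groups and 0 with the 3′ minus 5′ covariate. For old CR minus old (1102, 4 and 9), they were 1794, 6 and 15 among the brightest, 1666, 5 and 14 with a variance trend and 2289, 5 and 14 at an adjusted p under 0.10, and 0, 0 and 0 with the covariate. For old CR minus young (20, 0 and 0), they were 214, 1 and 3 among the brightest, 151, 1 and 1 with a variance trend, 65 and 1 (all and members) with a pseudocount of 32 and 99 and 1 at an adjusted p under 0.10, members 1 with quantile normalization, and all probe sets 12 with median centering, 6 with 2 groups and 8 with the covariate. Leaving out each array in turn gave 0 to 1067, 0 to 2 and 0 to 8 for old minus young, 462 to 1657, 2 to 4 and 4 to 13 for old CR minus old, and 7 to 34, 0 to 1 and 0 for old CR minus young. The highest counts for old minus young and for old CR minus old came without young replicate 3, apart from the members in the second, and the 34 came without old replicate 4. The 1 member called for old CR minus young in these alternatives was Canx 1415692_s_at.

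With the replicate number from the labels as a replicate block, 0 probe sets, 0 members and 0 other ER genes were called for old minus young, 4, 0 and 0 for old CR minus old, and 0, 0 and 0 for old CR minus young. The numbers share no more than a number, since same-numbered arrays correlated at −0.12 to 0.07 after the group means were removed, and old CR replicates 6 and 7 have numbers of no other group, so that the paired comparison rests on old CR replicates 2, 3 and 5. With the covariate, Hspa5 1416064_a_at turned to 0.011 and Canx 1422845_at to −0.18 for old CR minus old. Of the 45 member differences with an unadjusted p over 0.05, 32 changed sign under at least 1 alternative and 0 were called under any.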
